A study of Mus musculus with 3 samples.

Results

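The miRNA profile of injured skeletal muscle 1 day after cardiotoxin was compared with that of uninjured muscle, over every mature miRNA listed for both. The 1138 miRNAs were those of the whole series. A total of 998 had at least 1 read in either library, and 291 had a mean level of at least 10 CPM (counts per 1000000 reads of the library) over both and were compared in detail. The other 707 with a read and the 140 with 0 reads in both are given by abundance class. Tibialis anterior (TA) muscles came from 10-week old wild type C57BL/6 mice at day 0, without injury, and 1 day after cardiotoxin (CTX). CTX comes from cobra venom and kills myofibers, after which satellite cells rebuild the muscle. Whether the day 0 muscles received saline is not stated, and 1 more library of the series was made at day 3. At each day 4 samples were pooled into 1 library, so no spread between mice exists and no test of the injury was possible. All values below describe these libraries. The day 0 library held 8507580 reads and the day 1 library 6421056. Intervals are 95% intervals from the number of reads and cover the counting error of reads only. They can be too narrow, because PCR copies of 1 molecule are counted as separate reads.

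miRNAs are short RNAs cut from hairpin precursors, and 1 or both arms (5p and 3p) of a hairpin can be kept as mature miRNA. A mature miRNA pairs with its target mRNAs mainly through its seed, bases 2 to 8, so that miRNAs with a shared seed form a family with overlapping targets. In resting muscle the pool is dominated by myofiber miRNAs such as miR-1 and miR-133, and leukocytes, vessels and blood bring miRNAs of their own. In bulk muscle, fewer cells of a type and less of an miRNA per cell cannot be told apart.

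The sequences below carry the results, with the seed in capitals. The first set holds chosen miRNAs that were higher on day 1, mostly of leukocytes and inflammation, and is not a ranking by size of change. miR-532-5p, with the largest rise of all miRNAs compared, had no matching sequence and is not shown. miR-223 is a myeloid miRNA, miR-142a is found in all blood cell lineages, and miR-21a is induced in many inflamed and growing tissues.
miR-223-3p: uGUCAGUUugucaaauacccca
miR-142a-3p: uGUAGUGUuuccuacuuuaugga
miR-142a-5p: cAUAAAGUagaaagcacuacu
miR-21a-5p: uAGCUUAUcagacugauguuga
miR-21a-3p: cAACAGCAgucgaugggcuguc
miR-6538: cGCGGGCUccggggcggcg
No 2 of these 6 have a seed in common. In GRCm38.p6, miR-223-3p lies at chrX:96242884-96242905 (plus strand), in an exon of the noncoding gene F630028O10Rik. miR-142a-3p lies at chr11:87756903-87756925 (plus strand) and miR-142a-5p at chr11:87756867-87756887 (plus strand), both in an intron of the noncoding gene Mir142hg. miR-21a-5p lies at chr11:86584120-86584141 (minus strand) and miR-21a-3p at chr11:86584082-86584103 (minus strand), in an exon of Vmp1. miR-6538 lies at chr12:26414970-26414988 (minus strand), in an intron of Rnf144a. Each host is annotated on the strand of the miRNA.

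The second set groups miRNAs by shared seed. These are members of the miR-15/16 family, which restrains cell cycle genes, the pair miR-221 and miR-222, which is known to act in proliferating myoblasts, and members of the miR-27 and miR-29 families.
miR-15b-5p: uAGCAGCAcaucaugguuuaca
miR-16-5p: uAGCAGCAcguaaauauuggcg
miR-195a-5p: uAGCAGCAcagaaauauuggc
miR-497a-5p: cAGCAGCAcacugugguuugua
miR-322-5p: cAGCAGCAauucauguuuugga
miR-221-3p: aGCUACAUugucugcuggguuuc
miR-222-3p: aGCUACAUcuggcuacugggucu
miR-27a-3p: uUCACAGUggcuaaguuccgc
miR-27b-3p: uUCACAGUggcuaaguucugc
miR-29a-3p: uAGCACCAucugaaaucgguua
miR-29c-3p: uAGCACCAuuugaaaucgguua
miR-15b-5p lies at chr3:69009775-69009796 (plus strand) in an intron of Smc4, and miR-16-5p has copies at chr14:61631936-61631957 (minus strand) and chr3:69009918-69009939 (plus strand), in introns of Dleu2 and Smc4. miR-195a-5p at chr11:70235062-70235082 (plus strand) and miR-497a-5p at chr11:70234730-70234751 (plus strand) are neighbours, and miR-322-5p lies at chrX:53054306-53054327 (minus strand). miR-221-3p at chrX:19146307-19146329 (minus strand) and miR-222-3p at chrX:19146901-19146923 (minus strand) are also neighbours. miR-27a-3p lies at chr8:84208727-84208747 (plus strand), whereas miR-27b-3p lies at chr13:63300760-63300780 (plus strand) in an exon of 2010111I01Rik. miR-29a-3p lies at chr6:31062673-31062694 (minus strand), and miR-29c-3p at chr1:195037600-195037621 (plus strand) in an exon of the noncoding gene A330023F24Rik.

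The third set holds miRNAs that were lower on day 1. miR-206 and miR-133b are the pair made by regenerating and slow muscle, and miR-22 is abundant in striated muscle.
miR-206-3p: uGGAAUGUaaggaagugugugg
miR-133b-3p: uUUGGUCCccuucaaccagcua
miR-22-3p: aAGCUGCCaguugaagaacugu
miR-149-5p: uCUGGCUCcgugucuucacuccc
miR-181a-2-3p: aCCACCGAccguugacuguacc
miR-744-5p: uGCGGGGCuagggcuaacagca
miR-206-3p lies at chr1:20679055-20679076 (plus strand) and miR-133b-3p at chr1:20682834-20682855 (plus strand), both in exons of the noncoding gene Gm28653. miR-22-3p lies at chr11:75463772-75463793 (plus strand) in exons of Mir22hg and Tlcd2. miR-149-5p lies at chr1:92850381-92850403 (plus strand) in an intron of Gpc1, and miR-744-5p at chr11:65734799-65734820 (minus strand) in an intron of Map2k4. miR-181a-2-3p lies at chr2:38852785-38852806 (plus strand), opposite an intron of Nr6a1.

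The miRNA pool of the injured muscle differed broadly from that of the uninjured muscle. In terms of level, 34.6% of the pool on day 0 belonged to other miRNAs on day 1. The loss was concentrated in few miRNAs, and the gain was spread over many. miR-1a-3p, the main myofiber miRNA, held 233587 CPM on day 0 and 73841 CPM on day 1, which made up 46.2% of all the level lost. With miR-22-3p (210971 and 129422 CPM) and miR-378a-3p (93569 and 57213 CPM), an miRNA of mitochondrial metabolism made from an intron of Ppargc1b, the share reached 80.3%. The 3 largest gains made up 36.2% of all the level gained. miR-126a-3p, the endothelial miRNA, led with 57836 CPM on day 0 and 127912 CPM on day 1. miR-143-3p of smooth muscle (34278 and 62189 CPM) and miR-16-5p (10613 and 37972 CPM) followed. On day 1, miR-22-3p and miR-126a-3p stood first and second in the library, and miR-1a-3p, first on day 0, was at rank 3.

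**Figure D1:**
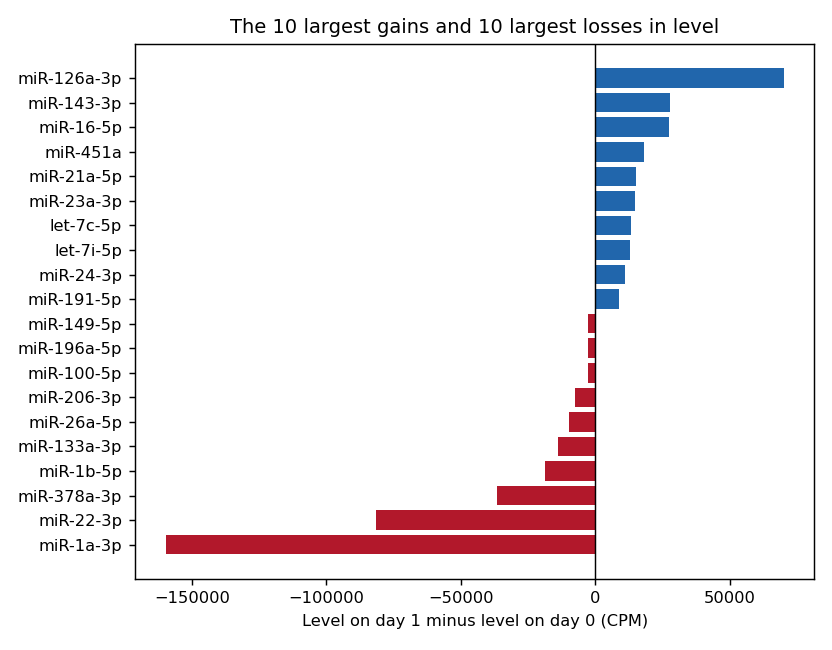
Difference in level between the day 1 and the day 0 library, in CPM, for the 10 miRNAs that gained most (blue bars) and the 10 that lost most (red bars), with 1 library per day. The bar of miR-1a-3p, at -159746 CPM, is longer than that of any miRNA that gained, the longest of which is miR-126a-3p at 70076 CPM.

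Of the 291 miRNAs compared, 150 (51.5%) were past 2-fold higher on day 1 and 32 (11%) past 2-fold lower. The remaining 109 lay within 2-fold. Of the 291, 56 were under 10 CPM on day 0 and reached the level for comparison only through day 1, so that all 56 had to be higher (all were past 2-fold), and 8 reached it only through day 0. Among the 235 with at least 10 CPM on day 0, 94 were past 2-fold higher and 32 lower, with a median of 0.63. Counting error was small beside these folds. The whole 95% interval lay past 2-fold for 137 of the 150 and for 27 of the 32. The median log2 change was 1.05, with quartiles of -0.0035 and 2.21. Because CPM are shares, the loss of a few abundant miRNAs raises the share of every other one, and TMM factors, which assume that most miRNAs do not change, lowered every log2 change by 0.94. Changes are therefore also given relative to the median of 1.05. On that scale 76 miRNAs (26.1%) were past 2-fold above the median and 81 (27.8%) past 2-fold below it. Which scale is nearer to amounts per muscle could not be determined from these libraries, which hold no added standard. The scatter plot of both levels shows the spread on each side of equality.

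**Figure D2:**
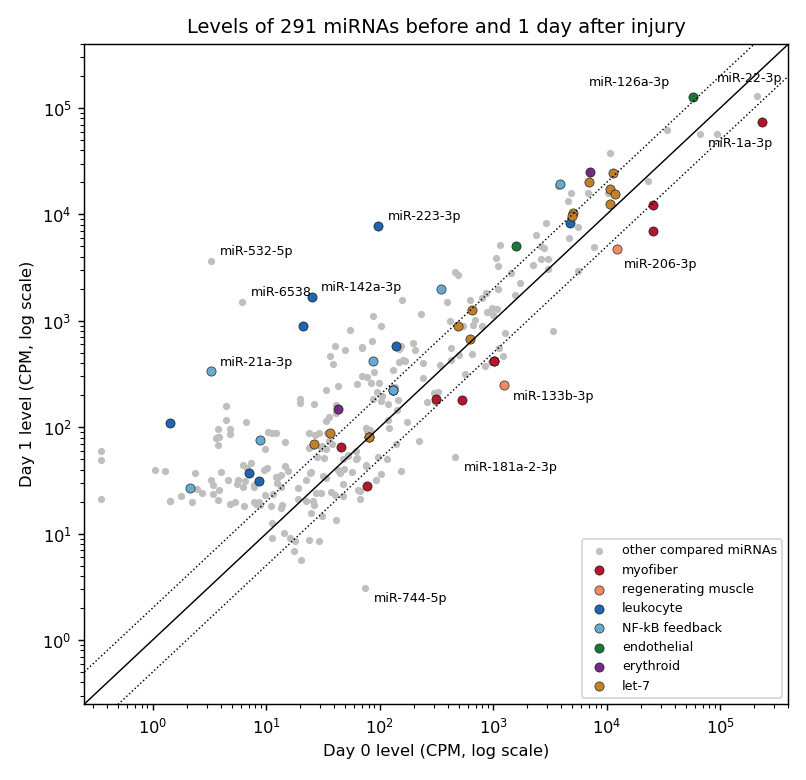
Level of each of the 291 compared miRNAs on day 0 (horizontal, CPM, log scale) and day 1 (vertical, CPM, log scale), with 1 library per day, members of 7 lists in colour, the solid line at equal levels and the dotted lines at 2-fold. A level under 3 reads is drawn at that of 3 reads. Myofiber miRNAs lie below the line with 1 exception (miR-486b-3p), and miR-223-3p, miR-142a-3p, miR-21a-3p, miR-6538 and miR-532-5p lie far above it.

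The change was described by abundance class, set by the mean level of both libraries. The classes overlapped widely, with quartiles of -0.23 and 1.52 over 10000 CPM and of -0.14 and 2.65 from 10 to 100 CPM. Across the 291 miRNAs the Spearman rho of the change with the mean level was -0.14, given as a description because all share the same libraries. The 21 miRNAs over 10000 CPM held 87.1% of the reads on day 0 and 78.6% on day 1. Their median log2 change was 0.72, with 9 past 2-fold higher and 3 lower, and the class ranged from -1.88 for miR-1b-5p to 2.31 for miR-23a-3p. The 40 miRNAs from 1000 to 10000 CPM went from 10.1% to 16.5% of the reads, with a median of 0.88, 17 higher and 2 lower. The 83 miRNAs from 100 to 1000 CPM went from 2.39% to 4.03%, with a median of 0.92, 40 higher and 10 lower. The 147 miRNAs from 10 to 100 CPM went from 0.392% to 0.704%, with a median of 1.29, 84 higher and 17 lower. The median half-width of the counting interval widened along the same classes, from 0.013 to 0.033, 0.10 and 0.34 on the log2 scale.

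**Figure D3:**
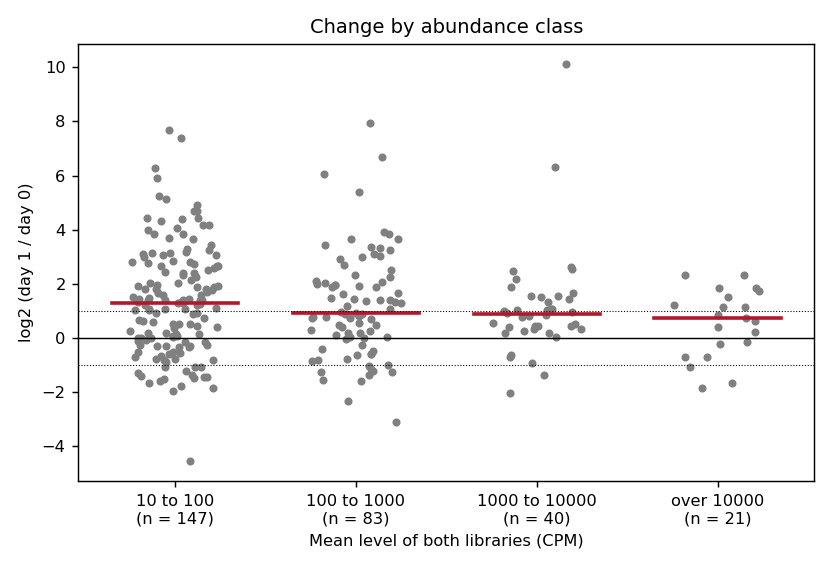
log2 ratio of day 1 to day 0 of each compared miRNA (points, spread sideways for legibility), by mean level of both libraries in CPM, with 1 library per day. The red line is the median of the class (1.29, 0.92, 0.88 and 0.72 from left to right), and the dotted lines mark 2-fold. All 4 medians are lowered by 0.94 with TMM factors, which turns the last 3 negative.

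Below the level for comparison, 230 miRNAs had a mean of 1 to 10 CPM. Of these, 136 were past 2-fold higher and 27 lower, but 15 had 0 reads on day 0 and the median half-width was 1.16. Another 477 had under 1 CPM, among which 142 were counted as higher and 128 as lower. There, 197 had 0 reads on day 0 and 83 had 0 reads on day 1. A difference was mostly not detectable at this depth, where 3 reads correspond to 0.353 CPM on day 0 and 0.467 CPM on day 1. Because only counts of 0 were set to 3 reads, 1 read in 1 library alone was counted in the opposite direction. The 142 and 128 therefore do not give directions of change.

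Myofiber miRNAs, the defining markers of the labelled tissue, made up 28.8% of the reads on day 0 and 9.44% on day 1. This list held miR-1, miR-133a, the myosin-intron miRNAs miR-208 and miR-499, and miR-486, which is enriched in muscle and also in red blood cells. Of 9 compared members 7 were past 2-fold lower and 0 higher, against 11% lower and 51.5% higher among all miRNAs compared. The median was -1.26, or -2.32 relative to the median of all. The summed level went from 288288 CPM (95% interval 287927 to 288649) on day 0 to 94402 CPM (94164 to 94639.9) on day 1. miR-1a-3p was at -1.66 on the log2 scale (95% interval -1.67 to -1.66), miR-1b-5p at -1.88 and miR-133a-3p at -1.08. With the deposited expression values, which level off among abundant miRNAs and whose making is not stated, miR-1a-3p was at -0.49 and within 2-fold. For miR-133a-3p the value nearest to 0 among the alternatives was -0.997, also within 2-fold. miR-499-5p, from an intron of the slow myosin gene Myh7b, was at -0.78 and within 2-fold. miR-486a-5p and miR-486b-5p carried the same 8634 reads on day 0 and 2715 on day 1, a log2 change of -1.26, and enter the counts and the sum under both names. miR-486b-3p was the exception at 0.52, from 391 reads on day 0 and 422 on day 1, which was -0.54 relative to the median of all.

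miR-206-3p and miR-133b-3p, known for their induction in regenerating muscle, were both lower on day 1. miR-206-3p held 105359 reads on day 0 and 30697 on day 1, or 12384 CPM on day 0 and 4781 CPM on day 1, a log2 change of -1.37 (-1.39 to -1.35). miR-133b-3p held 10552 reads on day 0 and 1585 on day 1, or 1240.3 CPM on day 0 and 247 CPM on day 1, a log2 change of -2.33 (-2.41 to -2.25). In the day 3 library they were at 180001 and 1644 CPM, both above day 0. The low level of the pair was thus found on day 1 and not on day 3 in these libraries. miR-378a-5p (-1.39), miR-378b (-1.03), miR-378c (-0.79) and miR-378a-3p (-0.71) were also lower. Of these 4, 2 were past 2-fold lower, against 11% of all miRNAs compared, and 4 were past 2-fold below the median of all, against 27.8%. Both arms of miR-22, 3p at -0.70 and 5p at -0.65, lay within 2-fold, and both were past 2-fold below the median of all.

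Leukocyte miRNAs were higher on day 1. Of 9 compared members 7 were past 2-fold higher and 0 lower, against 51.5% higher among all miRNAs compared. Past 2-fold above the median of all were 5, against 26.1% of all. Of the 9, 3 reached 10 CPM only through day 1. Of the other 6, 4 were past 2-fold higher, against 40% of the 235 miRNAs with at least 10 CPM on day 0. The median of the list was 2.40, or 3.72 over members with a mean of at least 100 CPM. The summed level of the list went from 5169 CPM (95% interval 5121 to 5218) on day 0 to 19697 CPM (19589 to 19806) on day 1. miR-223-3p, which holds back granulocyte activation and inflammatory cytokines, was 79.9-fold higher (95% interval 74.6 to 85.6), at 97.8 CPM on day 0 and 7815 CPM on day 1. miR-142a-3p was at 25.2 CPM on day 0 and 1684 CPM on day 1 (log2 6.06, 5.87 to 6.26), and miR-142a-5p at 21.3 CPM on day 0 and 887 CPM on day 1 (log2 5.38, 5.17 to 5.60). Smaller changes were found for miRNAs of lymphocytes and of macrophages. miR-150-5p, a miRNA of mature lymphocytes, had the highest level of the list on day 0 and lay within 2-fold at 4733 CPM on day 0 and 8307 CPM on day 1 (log2 0.81). Relative to the median of all it was at -0.24. miR-342-3p, from an intron of Evl, was at 2.05 and miR-511-3p, from an intron of the macrophage gene Mrc1, at 1.87, the latter from 73 reads on day 0 and 201 on day 1. In the day 3 library miR-511-3p was at 118 CPM against 31.3 CPM on day 1.

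The list of miRNAs linked to NF-kB feedback was higher as well, and induction of its members by NF-kB was not tested. Of 7 compared members 6 were past 2-fold higher and 0 lower, against 51.5% higher among all miRNAs compared. Of the 7, 3 reached 10 CPM only through day 1. Of the other 4, 3 were past 2-fold higher, against 40% of the 235 miRNAs with at least 10 CPM on day 0. The median of the list was 2.54. miR-146a-5p, which targets the receptor adaptors Irak1 and Traf6, was at 345 CPM on day 0 and 1999.5 CPM on day 1 (log2 2.54, 2.48 to 2.59). miR-146b-5p, with the same seed, was at 2.26. miR-21a-5p was at 3865 CPM on day 0 and 19119.6 CPM on day 1 (log2 2.31, 2.29 to 2.32) and held most of the summed level of the list, and miR-21a-3p was at 6.68. Both arms of miR-212 were higher, the 3p arm at 3.09 and the 5p arm at 3.65, the latter from 18 reads on day 0 and 171 on day 1. miR-155-5p, which promotes macrophage activation and stands in both lists, was the exception at 0.77 (0.66 to 0.88), from 1121 reads on day 0 and 1445 on day 1, and lay below the median of all. The arms of miR-132 did not reach a mean of 10 CPM.

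Vessel, blood and connective tissue miRNAs covered a wide range of levels and ratios. They stand beside 51.5% past 2-fold higher and 26.1% past 2-fold above the median of all among the 291 miRNAs compared. Both arms of miR-126a, made from the endothelial gene Egfl7, were past 2-fold higher, the 3p arm at 1.15 and the 5p arm at 1.66. Relative to the median of all they were at 0.091 and 0.60. The list went from 5.94% to 13.3% of the reads. miR-451a, the main miRNA of red blood cells, was at 7099 CPM on day 0 and 25178 CPM on day 1 (log2 1.83), and miR-144-3p from the same transcript at 42.9 CPM on day 0 and 148 CPM on day 1 (log2 1.79). The log2 change of miR-451a lay within the interval of miR-144-3p (1.62 to 1.96). The median of this pair was 0.75 relative to the median of all and 0.86 with TMM factors, within 2-fold on both scales. Of the smooth muscle miRNAs, miR-145a-5p was past 2-fold higher (1.32), whereas miR-143-3p (0.86) and miR-145a-3p (0.23) were within 2-fold, and the list's median of 0.86 was -0.085 with TMM factors. Of the fibroblast miRNAs, miR-214-3p was highest at 3.02 (2.90 to 3.15), from 69.7 CPM on day 0 and 566 CPM on day 1. miR-199a-3p and miR-199b-3p, counted with the same 7431 reads on day 0 and 11755 on day 1, were at 1.07, and miR-199a-5p at 0.27. This list's median, 0.98, was 0.040 with TMM factors.

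Markers of epithelial cells, neurons and hepatocytes had low levels. The 15 listed epithelial miRNAs summed to 35.1 CPM on day 0 and 262 CPM on day 1, with 3 compared. Of these, miR-200c-3p rested on 38 reads on day 0 and 1015 on day 1 (log2 5.15, 4.68 to 5.61), miR-429-3p on 20 reads on day 0 and 239 on day 1 (log2 3.98), and miR-203-3p of the epidermis on 161 reads on day 0 and 174 on day 1 (log2 0.52). The 16 listed neuronal miRNAs summed to 38.0 CPM on day 0 and 128 CPM on day 1, with 2 compared, of which miR-9b-3p was at 0.63. Of that list, miR-129b-3p went from 2 reads to 314 (log2 7.70, with a counting interval of 5.69 to 9.71), which became 5.34 when 1 CPM was added to both levels. The liver miRNA miR-122-5p went from 6.46 to 31.0 CPM. Of the compared members, miR-200c-3p, miR-429-3p, miR-129b-3p and miR-122-5p reached 10 CPM only through day 1 and so had to be higher. The other compared members of these lists, miR-203-3p and miR-9b-3p, lay below the median of all (1.05). The part of other tissue in the changes was not tested.

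**Figure D4:**
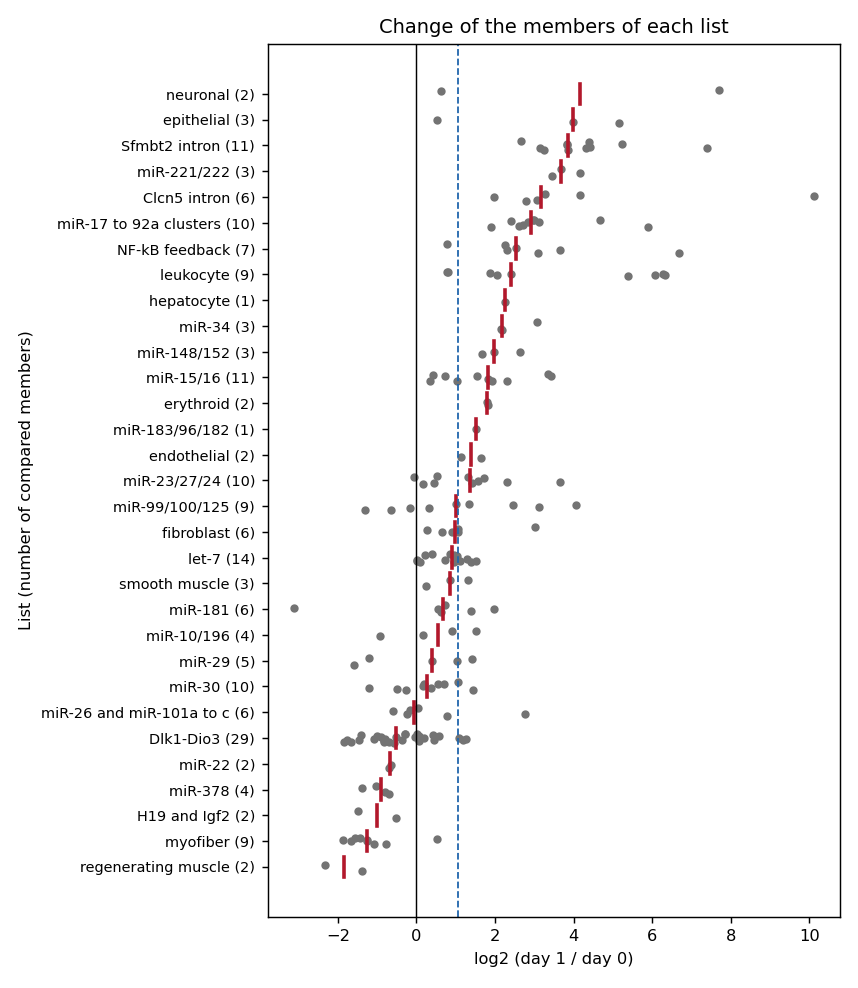
log2 ratio of day 1 to day 0 for the compared members of each list (points), with the number of compared members in parentheses, the median of the list as a red bar, the solid line at 0 and the dashed blue line at the median of all 291 miRNAs (1.05), with 1 library per day. The regenerating muscle, myofiber, miR-378, miR-22, H19 and Igf2, Dlk1-Dio3 and miR-26 with miR-101 lists have medians below 0. With TMM factors all points shift left by 0.94, so that the medians of the let-7, smooth muscle, miR-181, miR-29, miR-30 and Hox-cluster (miR-10 with miR-196) lists become negative too.

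Members of a seed family were counted on each side of 2-fold. Among 28 seeds with at least 2 compared members, all compared members were past 2-fold higher for 11 and past 2-fold lower for 0. Relative to the median of all, all compared members were past 2-fold above for 5 and below for 3. The 11 and the 5 include the seed of miR-34b-3p and miR-34c-3p, which summed to 9.64 CPM on day 0 and so had to be higher. Counts without members that reached 10 CPM only through day 1 were not taken. The counts by library totals stand beside 51.5% higher and 11% lower among all miRNAs compared, and were not tested against them. For 7 none was past 2-fold, for 8 some but not all were higher, and for 1 some were lower. Members were past 2-fold in both directions, by library totals, for 1 seed, that of miR-29. Summed over the seed, the largest gain after miR-126a-3p among the seeds covered was that of let-7, at 62672 CPM on day 0 and 112242 CPM on day 1 (log2 0.84), and next came the miR-15/16 seed at 17965 CPM on day 0 and 51603 CPM on day 1 (log2 1.52). The sums cover the names matched to a sequence. They leave out miR-143-3p among the large gains and miR-1a-3p, miR-378a-3p, miR-1b-5p and miR-133a-3p among the large losses, so that losses are not ranked by seed.

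The let-7 family, which promotes differentiation and restrains growth, lay close to the median of all miRNAs. Of 14 compared members, both arms included, 5 were past 2-fold higher and 0 lower, against 51.5% higher among all miRNAs compared. The median was 0.91, which was -0.14 relative to the median of all and -0.034 with TMM factors. let-7i-5p (1.52), let-7c-5p (1.12) and let-7b-5p (1.03) were past 2-fold, and so were let-7i-3p (1.29) and let-7e-3p (1.38), whereas let-7a-5p (0.72), let-7f-5p (0.40) and let-7d-5p (0.21) were not. let-7d-5p and let-7f-5p had been at levels similar to let-7c-5p on day 0, at 10788, 11861 and 11273 CPM. Members that share a seed differ by few bases outside it, and how reads were divided among them is not given in the sources used here.

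The miR-15/16 family showed a wide range within 1 seed. miR-15b-5p was at 156 CPM on day 0 and 1581 CPM on day 1 (log2 3.34, 3.26 to 3.42), miR-195a-5p at 1.94, miR-16-5p at 1.84 and miR-15a-5p at 1.55. miR-497a-5p (0.43) and miR-322-5p (0.34) were within 2-fold. miR-195a-5p and miR-497a-5p are neighbours on chromosome 11, and their intervals, 1.88 to 1.99 and 0.38 to 0.47, did not overlap. The passenger arm miR-15b-3p went from 21 reads to 169, a log2 change of 3.41, close to that of miR-15b-5p.

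miRNAs of the miR-17 to miR-92a cluster and its paralogs, which drive proliferation downstream of MYC, were past 2-fold higher for 10 of 10 compared members, against 51.5% of all miRNAs compared. Past 2-fold above the median of all were 9, against 26.1% of all. Of the 10, 3 reached 10 CPM only through day 1. The other 7 were also past 2-fold higher, against 40% of the 235 miRNAs with at least 10 CPM on day 0. The median of the list was 2.90, and its summed level was 1774 CPM on day 0 and 8828 CPM on day 1. miR-92a-3p had the most reads and the smallest change, at 1062 CPM on day 0 and 3929 CPM on day 1 (log2 1.89). miR-19b-3p was at 3.11, miR-93-5p at 2.62, miR-25-3p at 2.98 and miR-20a-5p at 2.71. miR-18a-5p was highest among those with reads in both libraries, at 32 reads on day 0 and 620 on day 1 (log2 4.68). For miR-18a-3p the day 0 library held 0 reads and the day 1 library 135, at least 59.6-fold higher against the floor of 3 reads in 1 library.

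The twin clusters of miR-23, miR-27 and miR-24 differed from each other. The miRNAs of the cluster on chromosome 8, miR-23a-3p at 2.31 (2.29 to 2.33) and miR-27a-3p at 1.56 (1.54 to 1.58), were past 2-fold higher. Those of the cluster on chromosome 13, miR-23b-3p at 0.44 (0.42 to 0.46) and miR-27b-3p at 0.52 (0.49 to 0.54), were within 2-fold. Relative to the median of all (1.05), miR-23a-3p was past 2-fold above and miR-27a-3p within 2-fold. On that scale miR-23b-3p and miR-27b-3p lay below the median, within 2-fold. On day 0, miR-23b-3p was more abundant than miR-23a-3p (5647 and 3730.0 CPM), and on day 1 less (7665 and 18522 CPM). miR-24-3p, made by both clusters, was at 1.73. Among the other arms, miR-27a-5p was at 3.66, miR-27b-5p at -0.071 and miR-23b-5p, past 2-fold higher from 67 reads on day 0 and 126 on day 1, at 1.32. Of the 5p arms of miR-24, miR-24-2-5p was at 1.41 (1.30 to 1.51) whereas miR-24-1-5p was at 0.16 (-0.27 to 0.59). The miR-23a cluster is known in myeloid cell development, and both clusters are also active in endothelium.

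The miR-29 family, which represses collagen genes, was split when scaled by library totals. miR-29b-3p was past 2-fold higher at 99.4 CPM on day 0 and 263 CPM on day 1 (log2 1.41), and miR-29c-3p past 2-fold lower at 949 CPM on day 0 and 409.6 CPM on day 1 (log2 -1.21). miR-29a-3p, the most abundant, lay between them at 1716 CPM on day 0 and 2267 CPM on day 1 (log2 0.40). The 5p arms followed the same order, miR-29b-1-5p at 1.02 and miR-29c-5p at -1.58. Summed over the seed, the level moved by 0.089 on the log2 scale. With TMM factors the log2 change of miR-29a-3p was -0.54. Relative to the median of all, miR-29b-3p was at 0.35, within 2-fold, and 0 compared members were past 2-fold above and 2 below.

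miR-221 and miR-222 were past 2-fold higher in 3 of 3 compared arms and past 2-fold above the median of all in 3, against 51.5% and 26.1% of all miRNAs compared, and 1 of the 3 reached 10 CPM only through day 1. miR-222-3p was at 87.0 CPM on day 0 and 1106 CPM on day 1 (log2 3.67, 3.56 to 3.78) and miR-221-3p at 49.3 CPM on day 0 and 537 CPM on day 1 (log2 3.45, 3.30 to 3.59), and the intervals overlapped. The p53-linked miR-34a-5p was at 1147 CPM on day 0 and 5155 CPM on day 1 (log2 2.17), and miR-34b-3p (2.15) and miR-34c-3p (3.06), which reached 10 CPM only through day 1, were also past 2-fold higher. miR-148a-3p, miR-148b-3p and miR-152-3p, which share a family, were all past 2-fold higher, against 51.5% of all miRNAs compared, at 2.65, 1.97 (under 10 CPM on day 0) and 1.66. Of these 3, 1 (miR-148a-3p) was past 2-fold above the median of all, near the 26.1% of all miRNAs, and their median was 0.91 relative to it.

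Other families had list medians below that of all miRNAs compared. Of the miR-30 family, 2 of 10 compared members were past 2-fold higher and 1 lower, against 51.5% and 11% of all miRNAs compared, with a median of 0.28 (-0.66 with TMM factors). miR-30d-5p stood apart at 2388 CPM on day 0 and 6467 CPM on day 1 (log2 1.44), against 0.17 for miR-30a-5p and 0.18 for miR-30c-5p. In the miR-181 family, an miRNA group of lymphocytes and endothelium, miR-181a-5p was at 0.63 and miR-181d-5p at 1.97, with a list median of 0.68 (-0.26 with TMM factors). Of 4 compared Hox-cluster miRNAs, 1 was past 2-fold higher and 0 lower, with miR-10a-5p at 1.51, miR-10b-5p at 0.92, miR-196b-5p at 0.17 and miR-196a-5p at -0.93. Members with the miR-99 seed were within 2-fold (miR-100-5p -0.64, miR-99a-5p -0.15, miR-99b-5p 0.32), whereas miR-125b-5p (1.02) and miR-125a-5p (1.33), listed with them, were past 2-fold higher. Relative to the median of all, miR-100-5p was at -1.69, miR-99a-5p at -1.21, miR-99b-5p at -0.73, miR-125b-5p at -0.035 and miR-125a-5p at 0.28. miR-26a-5p, at 66851 CPM on day 0 and 57119 CPM on day 1, moved by -0.23. The hypoxia miRNA miR-210 did not reach a mean of 10 CPM with either arm, and its arms summed to 2.82 CPM on day 0 and 13.4 CPM on day 1.

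Genomic clusters gave further groups. Of 10 miRNAs listed from the introns of Clcn5 on chromosome X, 6 were compared. Of these, 4 reached 10 CPM only through day 1 and so had to be higher. The other 2, miR-500-3p and miR-501-3p, were past 2-fold higher as well. Among all miRNAs, 51.5% of the 291 compared and 40% of the 235 with at least 10 CPM on day 0 were past 2-fold higher. miR-532-5p led all 291 miRNAs, with 28 reads on day 0 and 23696 on day 1 (log2 10.13, 9.60 to 10.67), and was at 24.9 CPM on day 3. The other compared members ranged from 1.96 for miR-501-3p to 4.17 for miR-532-3p, with miR-188-5p (3.27), miR-500-3p (3.08) and miR-362-5p (2.80) between them. miR-532-5p held 28 of the 967 reads of the cluster on day 0 and 23696 of the 27647 on day 1.

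Of 60 names from the repeat-rich intron of Sfmbt2 (the miR-297, miR-466, miR-467 and miR-669 families) 11 were compared. Of these, 9 reached 10 CPM only through day 1 and so had to be higher. The other 2, miR-467a-5p and miR-467e-5p, were past 2-fold higher as well, against 40% of all 235 miRNAs with at least 10 CPM on day 0. Of all 291 compared, 51.5% were past 2-fold higher. All 60 names summed to 106 CPM on day 0 and 1438 CPM on day 1. miR-467a-5p had the most reads, at 344 reads on day 0 and 3738 on day 1 (log2 3.85, 3.69 to 4.01). For miR-297c-5p, not found in the day 0 library, 383 reads on day 1 were at least 169-fold higher against the same floor. These families are near-identical copies, and some of their names, such as miR-669a-5p and miR-669p-5p, have the same reads in every library, so that the members are not independent and how reads were shared among the copies is uncertain.

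The imprinted Dlk1-Dio3 cluster on chromosome 12, active mainly in fetal tissues, was lower relative to other miRNAs. Of 90 listed members 29 were compared, of which 3 were past 2-fold higher and 6 lower, against 51.5% and 11% of all miRNAs compared. The 3 higher ones reached 10 CPM only through day 1 and so had to be higher. Another 4 members reached it only through day 0, and so had to be lower and past 2-fold below the median of all. They include miR-299a-5p, miR-493-5p and miR-539-5p (5.61, 8.57 and 8.72 CPM on day 1), which are among the 6 lower ones. The median was -0.53, and 21 of 29 were past 2-fold below the median of all, against 27.8% of all miRNAs compared. miR-411-5p was at 1263 CPM on day 0 and 775 CPM on day 1 (log2 -0.70), miR-434-3p at -0.83 and miR-379-5p at -0.040, while miR-127-3p was at 0.45. miR-299a-5p (-1.85), miR-493-5p (-1.77) and miR-329-3p (-1.67) were lowest, and miR-409-3p (1.25), miR-495-3p (1.20) and miR-134-5p (1.08) were highest. miR-675-3p, made from the imprinted H19 RNA, was at 103 CPM on day 0 and 36.6 CPM on day 1 (log2 -1.49), and was at 452 CPM on day 3.

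Some of the largest ratios belonged to miRNAs outside these lists. Among miRNAs with a mean of at least 100 CPM, miR-6538 came second after miR-532-5p, with 52 reads on day 0 and 9724 on day 1 (log2 7.95, 7.56 to 8.35), and it was at 7.15 CPM on day 3. miR-7a-5p was at 54.4 CPM on day 0 and 813 CPM on day 1 (log2 3.90), and miR-135a-5p at 38.6 CPM on day 0 and 390.1 CPM on day 1 (log2 3.34). miR-135a-5p was back at 38.0 CPM on day 3. The lowest ratio in that class was that of miR-181a-2-3p, at 457 CPM on day 0 and 52.5 CPM on day 1 (log2 -3.12, -3.28 to -2.96). Its partner arm miR-181a-5p, which is also made by a copy on chromosome 1, was at 0.63, and the passenger arm of that copy, miR-181a-1-3p, was at 1.40. miR-149-5p was at 3364 CPM on day 0 and 807 CPM on day 1 (log2 -2.06, -2.10 to -2.02). The lowest of all 291 was that of miR-744-5p, from 631 reads to 20 (log2 -4.57, -5.22 to -3.93), and it was at 119 CPM on day 3.

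Both arms of a precursor come from 1 transcript and are counted apart. Some arms share their reads between precursors, the 3p arms of miR-199a and miR-199b and the 5p arms of miR-486a and miR-486b. The values below are therefore not all separate. For 57 precursors both arms were compared. Their log2 changes were correlated across precursors (Pearson r 0.72, Spearman rho 0.73, n = 57, given as a description because all share the same libraries). Both arms were past 2-fold for 25 precursors, 23 with both higher and 2 with both lower, and in none with opposite directions. Some arms among the 23 were under 10 CPM on day 0 and so had to be higher. Both arms of miR-532 (28 and 32 reads on day 0) and of miR-339 (38 and 63 reads) were among them. The correlation and the counts on both scales include such arms and were not taken without them. Relative to the median of all, both arms were past 2-fold above for 10 and below for 11, and on opposite sides for 2, miR-335 and miR-151. The counts by library totals stand beside 51.5% higher and 11% lower among all miRNAs compared, and were not tested against them. The arms lay within 1 log2 unit of each other for 36 of the 57, with a median distance of 0.71. The largest distances were large beside counting error. miR-532 led, with the 5p arm at 10.13 and the 3p arm at 4.17, a difference of 5.96 (5.22 to 6.70), so that the 5p arm went from 46.7% of the reads of both arms to 98.2%. For miR-21a the minor 3p arm was at 6.68 (28 reads on day 0 and 2160 on day 1) and the 5p arm at 2.31. For miR-744 the 5p arm went from 86.9% of the reads of both arms to 25.6%, while the 3p arm moved by -0.31. For miR-99b, miR-335 and miR-214 the 3p arm was at 3.12, 2.50 and 3.02 and the 5p arm at 0.32, -0.014 and 0.90. A scaling moves both arms alike and does not alter these distances.

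**Figure D5:**
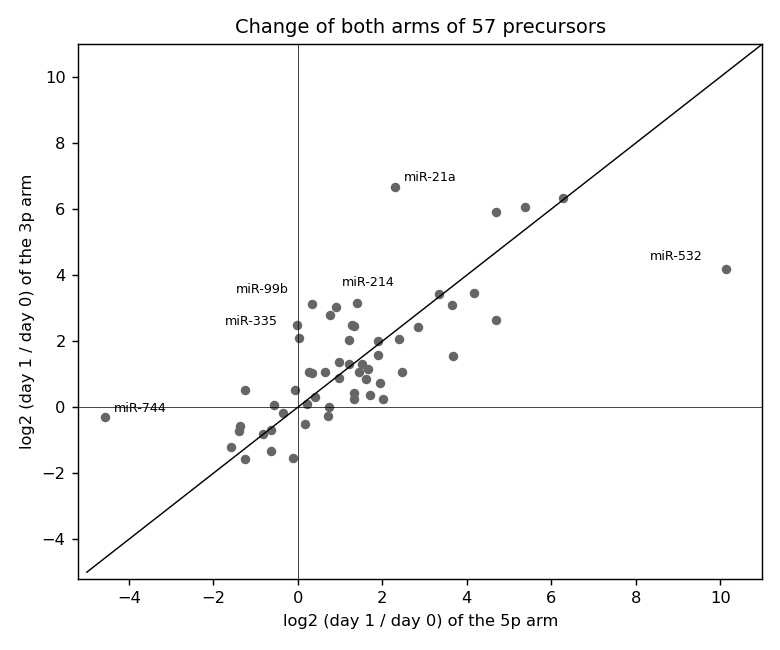
log2 ratio of day 1 to day 0 of the 5p arm (horizontal) and the 3p arm (vertical) of the 57 precursors with both arms compared, with 1 library per day and the diagonal at equal change. The 6 precursors with arms farthest apart are named, with miR-532 to the right of the diagonal and miR-21a above it.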

How the data were processed

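Small RNAs of 18 to 30 nt from TA muscle were sequenced on the BGISEQ platform in 1 library of 4 pooled samples per day. The authors aligned reads to GRCm38.p6, and the submitters' processing notes name HISAT and Bowtie2. The miRNA counter is not given in the sources used here. The authors deposited a read count per mature miRNA without normalization, used here, and an expression score of whole numbers never above the read count, whose making is not stated, used as an alternative. The library protocol mentions barcoded adapters, and whether the score counts reads collapsed by barcode was not determined.

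Counts were divided by the library total (8507580 and 6421056 reads) to give CPM, and the log2 ratio of day 1 to day 0 was taken with Wald intervals (levels with exact Poisson intervals). A count of 0 was set to 3 reads, and counts of 1 or 2 were kept. miRNAs with a mean of at least 10 CPM were compared, past 2-fold being the threshold, with no test. A low miRNA can reach that mean through 1 library alone. Named were the 10 most abundant per library, the 12 largest rises and falls with a mean of at least 100 CPM, the 10 largest gains and losses, the 6 precursors with arms farthest apart, the 6 seed families with the largest gain and loss (losses left unranked, since abundant miRNAs had no sequence), and members of the role lists by their abundance. Others were named after their values were seen. The members and lists were chosen with earlier results of these data known. Alternatives used TMM (edgeR 4.0.16), median-of-ratios factors (DESeq2 1.42.0) and others in the closing section. Sequences and positions came from RefSeq (GRCm38.p6), where 953 of 1138 names matched, and hosts from GENCODE M21. The ratio was tested on simulated data. Python 3.11.15, pandas 2.3.3, scipy 1.17.1 and R 4.3.3 were used.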

Additional observations from a re-analysis of the deposited data

How the results depend on the processing

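No paired analysis was possible because each day had 1 library. For the same reason a replicate could not be left out, and a difference between pools or library preparations cannot be told apart from the injury. The counts of miRNAs past 2-fold depended on the scaling. Against 150 higher and 32 lower with library totals, TMM factors gave 83 and 71 with a median log2 change of 0.11, median-of-ratios factors 83 and 72 with 0.092, totals without the most abundant miRNAs 83 and 71 with 0.11, and the deposited expression values 99 and 53 with 0.38. Centring on the median, a choice made after the values were seen, gave 76 and 81 with 0.00. The median of the list of miR-99, miR-100 and miR-125, past 2-fold by library totals, became -0.035. List medians within 2-fold that also became negative were those of let-7 (-0.14), smooth muscle (-0.19), fibroblast (-0.069) and miR-29 (-0.65). Those of miR-30 (-0.77), miR-181 (-0.37) and miR-10 with miR-196 (-0.51) did so too. Filters gave 286 and 59 with a median of 1.25 from 1 CPM, 66 and 15 with 0.87 from 100 CPM, and 428 and 187 with 0.66 for any read. These filters also moved the medians of 20 of 31, 18 of 25 and 24 of 31 lists by more than counting error. Because only 0 was set to 3 reads, 1 read in 1 library alone counted in the opposite direction under the last filter. The counts and medians for any read therefore do not give directions of change. From 100 CPM the median of the Clcn5 list was 6.05 against 3.18, that of the leukocyte list 3.72 against 2.40, and those of the miR-29 list (-0.40 against 0.40) and the list of miR-26 with miR-101a to c (0.27 against -0.054) changed sign. A fold of 4 gave 80 and 4, a fold of 1.5 gave 176 and 51, and summing by seed 101 and 21. With TMM factors, 44 of the 57 named miRNAs past 2-fold and 14 of the 20 such list medians stayed past it in the same direction. Adding 1 CPM, thinning the day 0 reads, requiring the whole interval past 2-fold, or keeping 1 of the names with identical reads (chosen after the values were seen) left both counts within 1.5 times.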

Other observations

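The 953 miRNAs with a sequence in the RefSeq table allowed the change to be set beside features of the mature sequence. Among 248 compared miRNAs with a sequence, the 43 of 23 nt had a median log2 change of 1.82, with 72.1% past 2-fold higher, against 0.88 and 46.3% for the 149 of 22 nt and 0.91 and 46.2% for the 39 of 21 nt. The 48 with a GC content of at least 55% had a median of 1.43, and the 45 under 40% a median of 0.96. Across miRNAs, the Spearman rho of the change was 0.16 with length and 0.066 with GC content (n = 248), given as descriptions because miRNAs of a family or cluster are not independent.

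Of the names with at least 20 reads in the day 0 and day 1 libraries together, 17 fell into 8 sets with the same reads in every library, among them let-7a-1-3p with let-7c-2-3p, miR-199a-3p with miR-199b-3p and miR-486a-5p with miR-486b-5p. Their reads enter the library totals under each name.

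The deposited expression value matched the count in 538 of 784 cases on day 0 and 647 of 915 on day 1 (miRNAs with a read), and exceeded it in 0. It levelled off among abundant miRNAs, with the highest values at 160688 for miR-1a-3p on day 0 and 154951 for miR-22-3p on day 1. On that scale, after division by its total in each library, the log2 change of miR-1a-3p was -0.49, against -1.66 from reads, and that of miR-223-3p was 5.34, against 6.32.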
